A study of Mus musculus with 32 samples.

Results

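Differentiated 3T3-L1 adipocytes that had received TNF-alpha (TNF) together with the PPARγ agonist rosiglitazone were compared with untreated adipocytes, to see how far each gene stood from its level in cells that received vehicle and no cytokine. The comparison used 8 of the 32 libraries of the series, 4 with TNF plus rosiglitazone and 4 with DMSO vehicle and no TNF, and it covered all 14428 genes expressed well enough to be tested. 3T3-L1 is a mouse preadipocyte line, so all libraries come from 1 line, and the cells of every group were first differentiated with insulin, dexamethasone and IBMX. The full series crossed 4 treatments (vehicle, SCO, CAP7 and rosiglitazone) with and without TNF, for 24 h, with 4 libraries labelled as biological replicates in each of 8 groups. Besides the comparison itself, values are given for TNF with vehicle, for rosiglitazone without TNF, and for TNF with SCO or with CAP7. What SCO and CAP7 are, the dose of each agent, and any batch or day are not given in the labels. Reads came from the 3' ends of mRNA (QuantSeq), and levels are given as CPM, the count in 1e6 counts of a library after TMM scaling.

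Fat cell differentiation depends on PPARγ, a ligand-activated nuclear receptor. It binds DNA as a pair with RXR at a repeated hexamer called a DR1 element, and its targets take up, bind, store and release lipid. TNF signals through its receptors to the transcription factor NF-κB, which turns on chemokines, acute phase genes and its own inhibitors. In fat cells the cytokine is known to lower the genes of the differentiated state and to impair the response to insulin, and thiazolidinediones such as rosiglitazone are known for opposing part of that change.

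Promoter sequences were examined because the genes left farthest above the untreated level included classic NF-κB targets. The 4 below were taken from RefSeq (GRCm38.p6), run 5′ to 3′ on the gene's strand, and hold 250 bases before the annotated start and 50 from it on. In the first 3, capitals mark matches on either strand to an NF-κB type motif, GGG and TTTCC with 2 bases of any kind between them. Nfkbia encodes the NF-κB inhibitor IκBα, Cxcl1 a neutrophil chemokine, and Tnfaip3 the feedback inhibitor A20, and all 3 genes stayed far above untreated. In the last, capitals mark a match on either strand to a DR1 type motif, AGGNCA repeated with 1 base of any kind between the copies, in the promoter of the chemokine gene Ccl6, which had one of the largest falls.

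Nfkbia (chr12:55492598-55492897, minus strand): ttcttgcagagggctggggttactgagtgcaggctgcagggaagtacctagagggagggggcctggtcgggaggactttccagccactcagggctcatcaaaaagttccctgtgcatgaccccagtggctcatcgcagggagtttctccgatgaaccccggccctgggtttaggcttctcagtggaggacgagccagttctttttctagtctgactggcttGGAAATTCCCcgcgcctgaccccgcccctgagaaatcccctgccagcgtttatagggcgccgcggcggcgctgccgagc

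Cxcl1 (chr5:90890995-90891294, plus strand): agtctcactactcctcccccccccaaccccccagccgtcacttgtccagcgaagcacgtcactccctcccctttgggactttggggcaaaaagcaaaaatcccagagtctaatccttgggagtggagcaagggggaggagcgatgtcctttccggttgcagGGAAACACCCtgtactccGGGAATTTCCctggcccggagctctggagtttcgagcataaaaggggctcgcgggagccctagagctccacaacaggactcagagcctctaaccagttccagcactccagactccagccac

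Tnfaip3 (chr10:19015361-19015660, minus strand): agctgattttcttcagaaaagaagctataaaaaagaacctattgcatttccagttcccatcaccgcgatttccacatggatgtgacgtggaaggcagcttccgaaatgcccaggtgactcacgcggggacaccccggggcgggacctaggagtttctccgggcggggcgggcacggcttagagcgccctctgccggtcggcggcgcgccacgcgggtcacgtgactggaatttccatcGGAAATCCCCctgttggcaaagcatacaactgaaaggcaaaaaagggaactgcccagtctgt

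Ccl6 (chr11:83593038-83593337, minus strand): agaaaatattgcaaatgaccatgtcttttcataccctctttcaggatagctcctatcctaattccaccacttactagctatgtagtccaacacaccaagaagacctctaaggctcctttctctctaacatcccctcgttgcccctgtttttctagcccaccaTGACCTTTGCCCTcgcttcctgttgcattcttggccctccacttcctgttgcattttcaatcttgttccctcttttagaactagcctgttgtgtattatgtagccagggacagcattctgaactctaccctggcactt

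The NF-κB type motif began 29 bases before the start in Nfkbia, 12 before it in Tnfaip3, and 89 and 71 before it in Cxcl1. Of all 32851 promoters in the RefSeq table, 535 (1.63%) held it, and of the 12834 promoters of tested genes, 226 (1.76%) did. Among genes raised by TNF and left at least 2-fold above untreated, 43 of 802 promoters (5.36%) held it, against 6 of 645 (0.93%) for genes lowered by TNF and left at least 2-fold below. In the gene lists, 7 of 37 promoters (18.9%) of NF-κB pathway genes and 4 of 16 (25.0%) of chemokine genes held it. The DR1 type motif was in 125 promoters (0.381%) of the table and in 26 (0.203%) of those of tested genes. It was in 5 of 645 (0.775%) for lowered genes left at least 2-fold below and 1 of 802 (0.125%) for raised genes left at least 2-fold above. For lowered genes past untreated it was in 0 of 296. None of the 37 promoters of PPARγ target genes held it, which says only that these letters are not in that window. A match is a description of the sequence and no measurement of binding.

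Of the 14428 genes tested, 3044 (21.1%) were lower with TNF plus rosiglitazone than in untreated cells and 3591 (24.9%) were higher, by edgeR's quasi-likelihood test with a Benjamini-Hochberg adjusted p under 0.05. At least 2-fold, 921 (6.38%) were lower and 1022 (7.08%) higher. A gene was counted as restored when it was not called and the 95% interval of its log2 difference lay within 1.5-fold of untreated. This held for 4077 genes (28.3%), of which 2239 were not called with TNF alone. Here and in the list counts, the word means only near untreated, whether or not TNF had moved the gene. The other 3716 (25.8%) could not be placed, and they were weakly expressed, with a median of 0.868 CPM against 26.6 for the restored genes. The 4 CPM values of each group did not overlap for 5989 genes (41.5%). At the threshold, Iws1 (log2 0.24, adjusted p = 0.0499) was among the last genes called. Among the first not called were Slc9a9, with a larger difference (-1.39, adjusted p = 0.05002), and Virma (-0.23, adjusted p = 0.05003). With library sizes alone as the scaling, the median gene moved from 0.00457 to -0.134 on the log2 scale, and the share of called genes that were higher went from 54.1% to 36.7%, so differences of that size depend on the scaling.

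Most genes that TNF alone had moved were still off the untreated level on the same side. TNF alone changed 54.2% of the genes tested, lowering 3965 (27.5%) and raising 3852 (26.7%). Of the lowered genes, 2164 (54.6%) were left below with rosiglitazone present, 1029 (26%) were restored, 492 (12.4%) could not be placed and 280 (7.06%) were past the untreated level. Of the raised genes, 2624 (68.1%) were left above, 809 (21%) were restored, 340 (8.83%) could not be placed and 79 (2.05%) were below untreated. Among genes TNF had changed at least 2-fold, 945 of 1460 lowered genes (64.7%) were left below and 1065 of 1256 raised genes (84.8%) were left above. Both steps use the same 4 untreated libraries, so these shares are a description of the sorting. With the TNF genes taken instead from the SCO and CAP7 libraries, which share none with this comparison, 48.7% of 4103 lowered genes were left below and 60% of 4275 raised genes were left above.

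**Figure D1:**
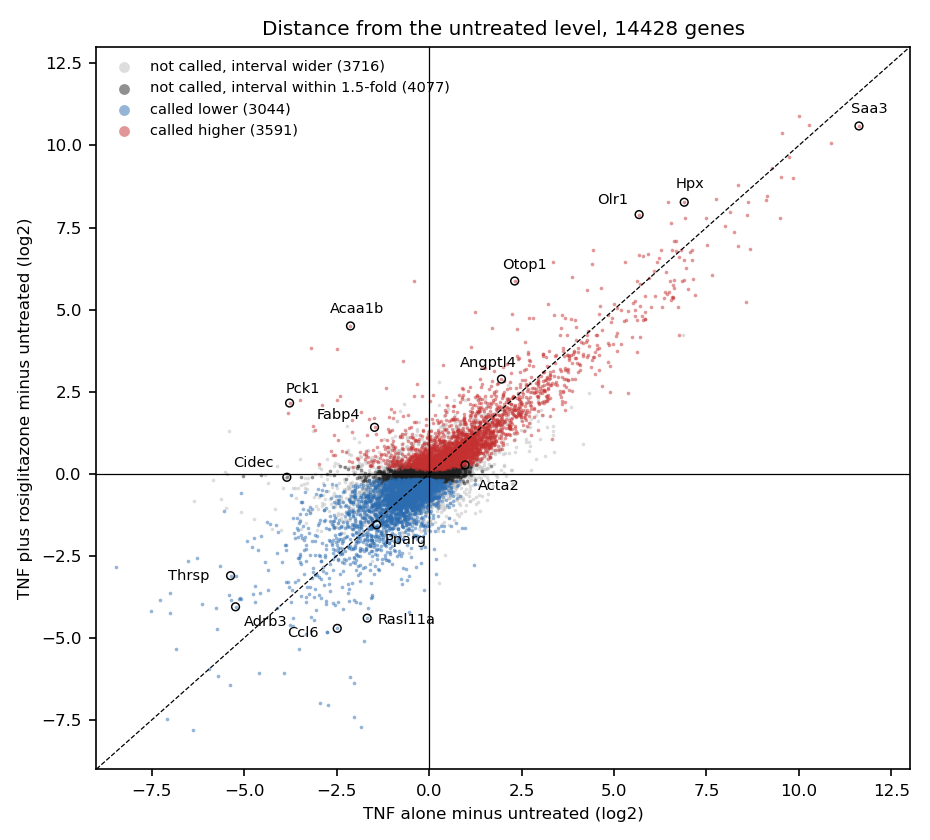
Each point is 1 of the 14428 genes, placed by its log2 difference from untreated with TNF alone (x axis) and with TNF plus rosiglitazone (y axis), and coloured by its call on the y axis. Genes on the horizontal line are back at the untreated level and genes on the dashed diagonal are where TNF alone left them. Pck1 and Fabp4 lie above the horizontal line, Cidec on it, Adrb3 and Thrsp below it, and Ccl6 and Rasl11a below the diagonal.

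Left below did not always mean unmoved by rosiglitazone. The genes in the next counts were sorted on the same libraries with TNF alone that they are then compared with, so their shares cannot be read against those of all genes. Of the 2164 genes left below, 678 (31.3%) were higher than with TNF alone (19.6% over all genes tested), 276 (12.8%) were lower still, and 1210 (55.9%) were not called against TNF alone. Of the 2624 left above, 679 (25.9%) were lower than with TNF alone (16.3% over all genes tested), 267 (10.2%) were higher still, and 1678 (63.9%) were not called. Among the 6611 genes not called with TNF alone, 801 (12.1%) were lower than untreated and 687 (10.4%) higher, beside 21.1% and 24.9% of all genes. Rosiglitazone alone lowered 19% and raised 18.4% of all genes tested.

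Fat cell identity genes recovered in part. In the list of 27, 24 were tested. Of these, 12 were lower than untreated (50%, beside 21.1% of all genes), 6 higher (25%, beside 24.9%) and 6 restored. The list's median log2 difference was -0.29, against -1.90 with TNF alone. In bulk RNA, fewer cells of a type and less RNA per cell cannot be told apart. Adrb3, the β3-adrenergic receptor through which catecholamines start lipolysis, measured 303, 286, 295 and 266 CPM in the 4 untreated libraries. It measured 9.36, 7.54, 6.55 and 7.12 CPM with TNF alone and 17.6, 14.8, 13.3 and 24.4 with TNF plus rosiglitazone. All 4 rosiglitazone libraries were above all 4 with TNF alone, yet they held 6.09% of the untreated mean (log2 -4.06 ± 0.12 SE, n = 4 against 4, edgeR adjusted p = 5.42e-25). Thrsp, a nuclear protein tied to lipid synthesis, rose from 6.57 to 9.28 CPM with TNF alone to 24.2 to 47.5, against 288 to 375 untreated (log2 -3.11 ± 0.14). Adipoq, which encodes the hormone adiponectin, was at 9587, 9771, 9824 and 9351 CPM untreated, 2669, 2655, 2700 and 3192 with TNF alone, and 5159, 4301, 5078 and 5307 with both agents. It stood at 51.5% of the untreated mean (log2 -0.96 ± 0.07, edgeR adjusted p = 3.35e-14), and none of the 3 groups overlapped. Lpl, the lipase that frees fatty acids from lipoproteins, reached 53.3% of untreated, and Slc2a4, the insulin-responsive glucose transporter GLUT4, 53.9%.

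Pparg itself did not come back. Its libraries read 561, 588, 598 and 540 CPM untreated, 217, 214, 208 and 217 with TNF alone, and 200, 185, 183 and 210 with TNF plus rosiglitazone, 34% of untreated (log2 -1.56 ± 0.08, edgeR adjusted p = 4.94e-19). The difference between the groups with TNF was -0.14 on the log2 scale (adjusted p = 0.18). Rosiglitazone without TNF also lowered Pparg, to a mean of 261.7 CPM (log2 -1.13). Rxra, the receptor that pairs with PPARγ, had log2 differences of -1.06 with both agents, -0.93 with TNF alone and -0.98 with rosiglitazone alone. Cebpa, the other main factor of the mature fat cell, rose from 14.4% of untreated with TNF alone to 69.4% (log2 -0.53 ± 0.08).

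Among 30 fat cell transcription factors, 19 were lower, 3 higher, 4 restored and 4 could not be placed, beside 21.1% and 24.9% of all genes. Klf15, a factor of mature adipocytes, stood at 41.5% of untreated. Klf5, a factor of early differentiation, was higher in all 4 libraries (31.3 to 37.1 CPM against 3.56 to 4.99; log2 3.10 ± 0.15) and had the same value with TNF alone (3.09). Of 31 coregulators and partner receptors of PPARγ, 13 were lower (41.9%, beside 21.1% of all genes) and 9 higher (29%, beside 24.9%). With library sizes alone these counts were 16 and 5. Besides Pparg and Rxra, the corepressor gene Nrip1 was among the lower (log2 -1.34 ± 0.09), and the coregulator gene Tle3 had the largest rise of the list (1.11 ± 0.09).

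**Figure D2:**
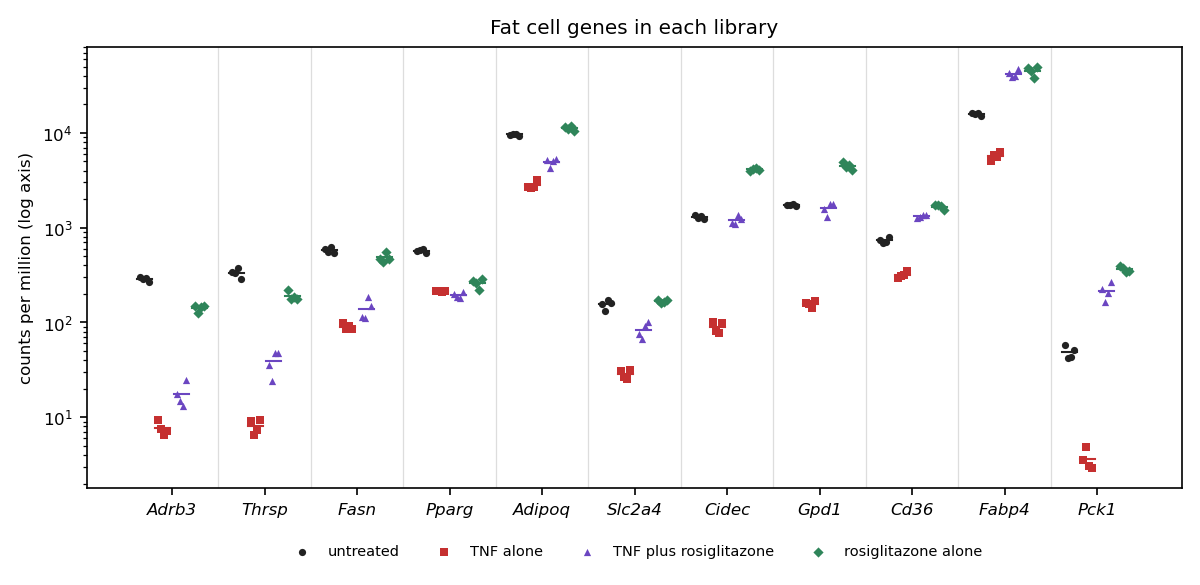
CPM (log axis) of 11 fat cell genes in each of 4 libraries per group, with a short line at each group's mean. From left to right the genes go from far below untreated (Adrb3, 6.09% of the untreated mean) through restored (Cidec 92.7%, Gpd1 93%) to past it (Pck1, 446%).

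Genes of fatty acid synthesis also recovered in part, and some stayed far below untreated. Of 24 genes of de novo lipogenesis, 13 were lower (54.2%, beside 21.1% of all genes), 6 higher (25%, beside 24.9%) and 5 restored. The list's median log2 difference was -0.21, against -0.83 with TNF alone. Against TNF alone, 20 of the 24 were higher and 1 lower, beside 19.6% and 16.3% of all genes tested. Fasn, the fatty acid synthase, was at 601, 556, 629 and 537 CPM untreated and at 113, 112, 187 and 148 with both agents, 24.1% of the mean (log2 -2.05 ± 0.12, edgeR adjusted p = 2e-17). With TNF alone it was at 85.7 to 97.8 CPM, below every library with rosiglitazone. Scd1, the stearoyl-CoA desaturase, was at 33.1% of untreated, and rosiglitazone alone also left it at 52.3%. Acaca, acetyl-CoA carboxylase, was not called (log2 -0.24 ± 0.10, adjusted p = 0.0524), but its libraries, 47 to 65.5 CPM against 61 to 73.1, sat at that edge and it was called in several other settings.

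Insulin signalling and amino acid breakdown showed the same incomplete pattern. Of 32 genes of insulin signalling and glucose uptake, 15 were lower (46.9%, beside 21.1% of all genes) and 6 higher (18.8%, beside 24.9%). Another 10 were restored and 1 could not be placed. Ppp1r3c, a glycogen-targeting subunit of protein phosphatase 1, was at 20.4% of untreated (log2 -2.29 ± 0.11) and Irs1, the docking protein of the insulin receptor, at 45.3% (-1.14 ± 0.08). The other docking protein gene, Irs2, was above untreated in all 4 libraries (76.2 to 82.7 CPM against 59.6 to 68.5; log2 0.30 ± 0.07), and Insr, the receptor, was restored (-0.09 ± 0.09). Slc2a1, the general glucose transporter GLUT1, was raised by TNF alone (log2 0.77) and farther with rosiglitazone (1.20 ± 0.12). Of 23 genes of branched-chain amino acid catabolism, 17 were lower (73.9%, beside 21.1% of all genes), 3 higher and 3 restored. Ivd, isovaleryl-CoA dehydrogenase, read 52, 51.8, 67.3 and 62.8 CPM with both agents and 56.6, 56.2, 59.7 and 62.1 with TNF alone, all far under the untreated 190, 167, 178 and 180 (log2 -1.61 ± 0.08). Bckdhb, a subunit of the branched-chain ketoacid dehydrogenase, went the other way, from 113 to 136 CPM untreated to 336 to 451 (1.63 ± 0.09), and its difference with TNF alone was not called (0.20).

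The respiratory chain and TCA cycle came close to the untreated level but mostly not to it. TNF alone lowered all 44 genes of the list (beside 27.5% of all genes), by a median of -0.98 on the log2 scale. With rosiglitazone the median was -0.20, and all 44 were higher than with TNF alone, beside 19.6% of all genes. Of the 44, 26 were still below untreated (59.1%, beside 21.1% of all genes) and 3 were past it (6.82%, beside 24.9%). Another 15 were restored. By complex, 7 of 10 complex I genes, 3 of 4 of complex II, 2 of 5 of complex III with cytochrome c, 3 of 6 of complex IV and 4 of 5 of the ATP synthase were still lower. The medians of these groups ran from -0.11 (complex IV) to -0.37 (complex II). In the TCA cycle and pyruvate entry, Pdhb of pyruvate dehydrogenase was the lowest (160, 148, 186 and 173 CPM against 265, 281, 281 and 261; log2 -0.70 ± 0.06) and Idh3a of isocitrate dehydrogenase the highest (0.52 ± 0.07). Most of these differences are small, and with library sizes alone 37 of the 44 were lower (median -0.34).

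Several lipid storage genes were back at the untreated level after large falls, though most genes of the lipid storage lists were not. Of 20 lipolysis and lipid droplet genes, 8 were lower (40%, beside 21.1% of all genes), 9 higher (45%, beside 24.9%) and 3 restored. Of 18 genes of triglyceride synthesis and glyceroneogenesis, 7 were lower (38.9%), 7 higher (38.9%) and 4 restored. Bscl2 was among those left below, at 50% of untreated. Cidec, which fuses lipid droplets, was at 1354, 1272, 1322 and 1238 CPM untreated, 101, 82.1, 77.3 and 99.9 with TNF alone, and 1109, 1087, 1371 and 1239 with both agents. The groups overlapped, and the log2 difference was -0.11 ± 0.08 (adjusted p = 0.244). Gpd1, which makes glycerol 3-phosphate for triglyceride, was at 1557, 1297, 1796 and 1790 CPM against 1729, 1732, 1766 and 1694 (log2 -0.10 ± 0.09), and TNF alone had left it at 142 to 167. Agpat2, an acyltransferase of triglyceride synthesis, reached 97.1% of untreated and Aqp7, the glycerol channel, 99.3%. Cavin2, of the coat of caveolae, Mgll, the monoglyceride lipase, and Cpt2, the inner carnitine palmitoyltransferase, were also restored. With library sizes alone, Cidec (-0.25), Gpd1 (-0.24), Cpt2 (-0.25) and Aatk (-0.24) were called lower.

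Many targets of PPARγ went past untreated. Of 37 tested, 23 were higher than untreated (62.2%, beside 24.9% of all genes) and 7 lower (18.9%, beside 21.1%). Another 6 were restored and 1 could not be placed. All 37 were higher than with TNF alone, beside 19.6% of all genes tested. With library sizes alone, 20 were higher than untreated and 11 lower. Of the 32 that TNF alone lowered, 7 were left below, 6 were restored, 1 could not be placed and 18 were past. Among all genes that TNF lowered, 54.6% were left below and 7.06% were past. Pck1, the enzyme of glyceroneogenesis, read 57.3, 42, 43.3 and 50.6 CPM untreated, 3.55, 4.84, 3.05 and 2.92 with TNF alone, and 226, 165, 204 and 266 with both agents. Every library with both agents was above every untreated one (log2 2.15 ± 0.13, edgeR adjusted p = 9.47e-17), though rosiglitazone alone gave more (mean 363.9 CPM, 2.91). Fabp4, the fatty acid binding protein, was at 42410, 38780, 39830 and 47740 CPM against 16130, 15680, 16420 and 15140 untreated, 266% of the mean (log2 1.41 ± 0.10), having been at 35.9% with TNF alone. Cd36, the fatty acid transporter, was at 179% and Arxes2 at log2 1.32 ± 0.09. Targets that TNF had not lowered also rose: Angptl4, an inhibitor of lipoprotein lipase, was at 161, 158, 154 and 152 CPM untreated and 1166, 1215, 1086 and 1134 with both agents (2.88 ± 0.06), and TNF alone had itself raised it (1.96). Plin2 (1.87), the glycerol kinase gene Gk (2.39) and the niacin receptor gene Hcar2 (2.22) were higher as well. Among the 7 targets left below were Adipoq, Lpl, Plin1, Lipe and Dgat1.

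Because a few targets are so abundant, the summed level and the median gene differ in sign for the identity list. Its summed CPM ran from 62700 to 76600 with both agents against 59600 to 63200 untreated, while its median gene was lower. With both agents, Fabp4 alone was at 38780 to 47740 CPM of that sum, and untreated at 15140 to 16420.

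Fatty acid oxidation followed the targets. Of 29 genes, 18 were higher than untreated (62.1%, beside 24.9% of all genes) and 2 lower (6.9%, beside 21.1%). Another 6 were restored and 3 could not be placed. With library sizes alone, 12 were higher and 4 lower. Acaa1b, a peroxisomal thiolase, was at 43.2, 32.8, 44.8 and 63.6 CPM against 2.69, 0.842, 1.39 and 3.19 untreated (log2 4.50 ± 0.27), and Acaa1a at 1.06 ± 0.07. These 2 genes are close copies, and how shared reads were assigned is not given in the sources used here. Acadl, a mitochondrial acyl-CoA dehydrogenase (0.77 ± 0.07), and Pdk4, the kinase that shuts pyruvate dehydrogenase (1.89 ± 0.14), were also above untreated. Of 15 tested genes of brown and beige fat, 7 were higher (46.7%, beside 24.9% of all genes) and 4 lower (26.7%, beside 21.1%). Ppargc1a was among the higher (0.39 ± 0.14, adjusted p = 0.0211), with overlapping libraries, and it lost the call when untreated replicate 1 or 2 or TNF plus rosiglitazone replicate 3 was left out (0.27 to 0.37), with library sizes alone (0.26) and with libraries thinned to the lowest total (0.33). Kcnk3 was among the lower (-0.69 ± 0.10), and Ucp1 had too few counts to test, 6 in the 8 libraries.

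**Figure D3:**
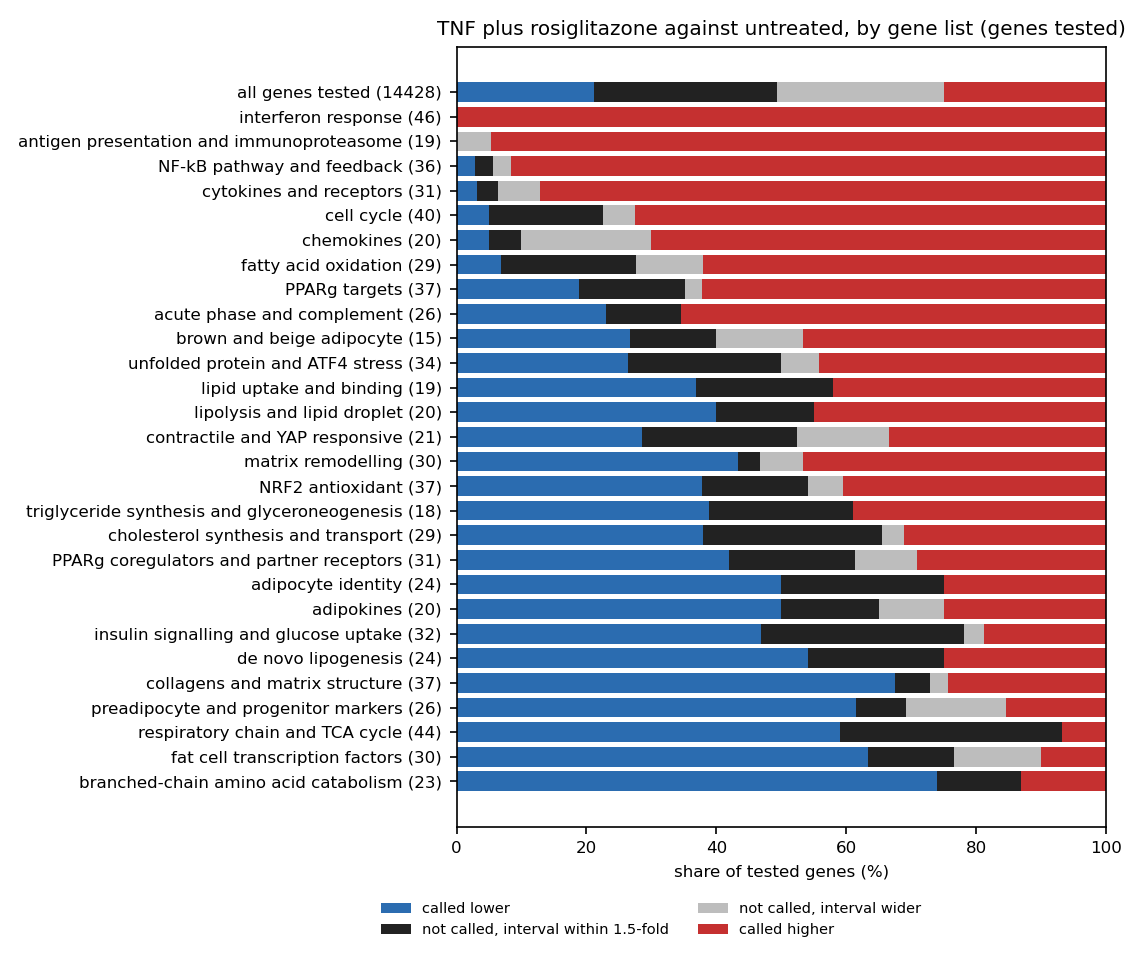
Share (%) of each gene list's tested genes (number in parentheses) that were called lower, restored, not placed or called higher with TNF plus rosiglitazone against untreated, with all 14428 tested genes as the top bar. Lists are ordered by the excess of higher over lower calls; all 46 interferon genes were higher and 73.9% of the branched-chain amino acid genes lower. Some genes are in several lists. The lists of macrophage and leukocyte markers and of endothelial and mural markers are not drawn.

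Most inflammatory genes stayed above untreated. Of 36 tested genes of the NF-κB pathway and its feedback, 33 were above untreated (91.7%, beside 24.9% of all genes), 1 was below, 1 restored and 1 could not be placed. The list's median log2 difference was 1.74, against 1.91 with TNF alone. It was 1.64 with Tnip3 and Icam1, which had no count in the untreated libraries, at their lower bound. Against TNF alone, 18 of the 36 were lower and 5 higher, beside 16.3% and 19.6% of all genes tested. Nfkbia, whose promoter is shown above, was at 239, 235, 238 and 266 CPM untreated, 1893, 1831, 1889 and 1968 with TNF alone, and 1741, 1748, 1608 and 1495 with both agents (log2 2.75 ± 0.07, edgeR adjusted p = 3.72e-28). The fall against TNF alone was small but called (-0.20, adjusted p = 0.017). Tnfaip3 was at 44, 48.1, 41.6 and 46.7 CPM against 3.9, 2.01, 2.9 and 3.61 untreated (3.84 ± 0.15), and its difference from TNF alone was not called (-0.20, adjusted p = 0.14). Vcam1, the leukocyte adhesion molecule, was nearer to untreated, at 503, 469, 378 and 487 CPM with both agents, 904 to 966 with TNF alone and 73.3 to 82.6 untreated (2.53 ± 0.10). Icam1 had no count untreated and 178 with both agents, at least 42.1-fold higher against a floor of 3 counts over the group.

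Chemokines were the group farthest above untreated, with a median log2 difference of 4.51. Of 20 tested, 14 were higher (70%, beside 24.9% of all genes), 1 lower, 1 restored and 4 could not be placed. Against TNF alone, 10 of the 20 were lower, beside 16.3% of all genes. Ccl2, which draws monocytes, read 22.4, 29.1, 28.9 and 29 CPM untreated, 2228, 2287, 2486 and 2456 with TNF alone, and 1398, 1194, 1002 and 1210 with both agents (log2 5.46 ± 0.13, edgeR adjusted p = 2.06e-27). All 4 libraries with both agents were below all 4 with TNF alone, by 0.98 on the log2 scale. Cxcl1 was at 322, 262, 246 and 294 CPM against 6.12 to 8.74 untreated (5.19 ± 0.13), and at 319 to 381 with TNF alone. Cxcl10, an interferon-responsive chemokine, scattered widely with both agents (336, 192, 119 and 335 CPM) and its difference from TNF alone was not called (-0.44, adjusted p = 0.23). Ccl6 was the exception and is described with the genes pushed farther down.

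Interferon-responsive and antigen-presentation genes were all or nearly all left above. Of 46 tested interferon genes, 46 were higher than untreated (100%, beside 24.9% of all genes), with a median of 2.41 against 2.68 with TNF alone. Against TNF alone, 3 of them were lower and 1 higher, beside 16.3% and 19.6% of all genes tested. Summed over the list, the untreated libraries ran from 536 to 1090 CPM and those with both agents from 2550 to 4560, where replicate 3 was the lowest. Gbp2, an interferon-induced GTPase, was at 245, 219, 187 and 233 CPM against 10.2, 10, 11.1 and 16.6 (4.23 ± 0.15), and Irf1, the transcription factor, at 258 to 344 against 57.6 to 61.8 (2.36 ± 0.08). Gbp5 had no untreated count and 3571 with both agents, at least 845-fold higher against the same floor. Of 19 antigen-presentation and immunoproteasome genes, 18 were higher (94.7%, beside 24.9% of all genes). H2-K1, a class I molecule, was at 5202, 5027, 4659 and 4825 CPM, above its level with TNF alone (3423 to 3936) and untreated (979 to 1201). Class I genes, guanylate-binding proteins and chemokines have close copies, so the split between copies is uncertain. Of 40 cell cycle genes, 29 were higher (72.5%, beside 24.9% of all genes) and 2 lower (5%, beside 21.1%), with a median of 0.55. Mcm3, of the replicative helicase, was at 42.5 to 47.2 CPM against 17.5 to 22.3 (1.21 ± 0.11).

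**Figure D4:**
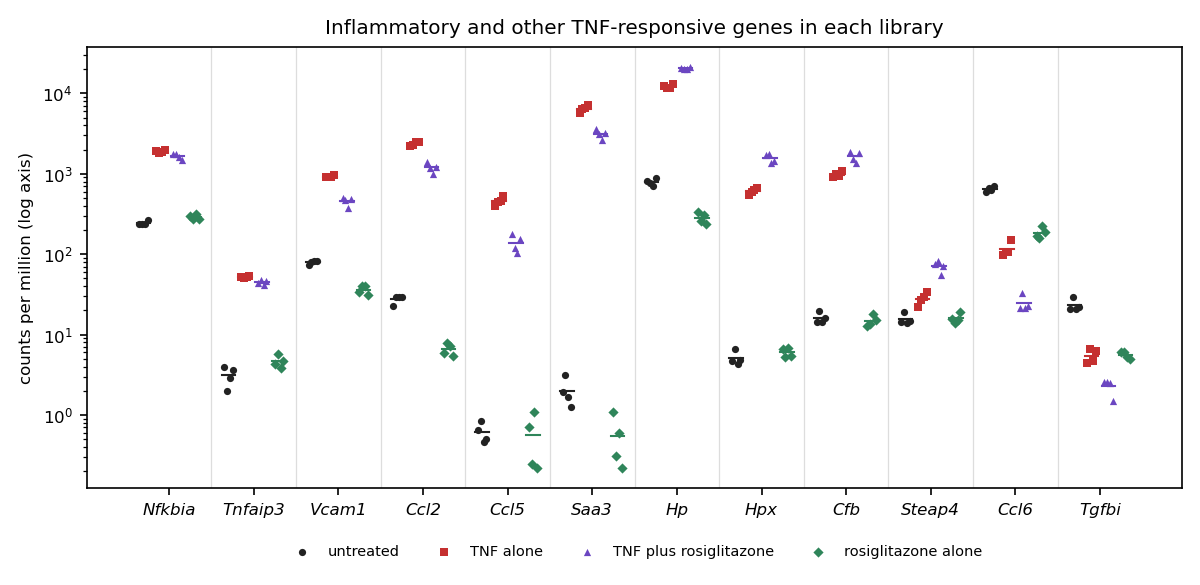
CPM (log axis) of 12 genes in each of 4 libraries per group, with a short line at each group's mean. For Ccl2, Ccl5, Saa3 and Vcam1 the libraries with TNF plus rosiglitazone lie between TNF alone and untreated, for Hp, Hpx, Cfb and Steap4 above TNF alone, and for Ccl6 and Tgfbi below all 4 libraries with TNF alone.

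Acute phase genes split unevenly, with more of them lower than with TNF alone than higher. Of 26 tested, 17 were higher than untreated (65.4%, beside 24.9% of all genes), 6 lower (23.1%, beside 21.1%) and 3 restored. Against TNF alone, 15 of the 26 were lower and 3 higher, beside 16.3% and 19.6% of all genes tested. Saa3, serum amyloid A3, went from 1.95, 3.11, 1.65 and 1.26 CPM untreated to 5704, 6445, 6479 and 7061 with TNF alone and 3595, 3083, 2636 and 3235 with both agents (log2 10.59 ± 0.23). Hpx, the heme-binding hemopexin, went from 4.68, 6.54, 4.35 and 4.87 CPM to 549, 595, 635 and 657 with TNF alone and to 1719, 1772, 1379 and 1431 with both agents (8.27 ± 0.13). Every library with both agents exceeded every library with TNF alone for Hpx, and the difference was 1.37 on the log2 scale (edgeR adjusted p = 1.2e-14). Hp, haptoglobin, showed the same order, 708 to 885 CPM untreated, 11530 to 13160 with TNF alone and 19880 to 21240 with both, although rosiglitazone alone lowered it (log2 -1.48). Cfb, complement factor B, was at 6.68 against 5.92 with TNF alone and Sod2, the mitochondrial superoxide dismutase, at 3.08 against 2.22. Lcn2, lipocalin 2, was at 5.25 against 5.57.

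Other genes that TNF raised were carried farther by the pair of agents. Olr1, the receptor for oxidized low-density lipoprotein, was at 208, 190, 180 and 209 CPM with both agents, 40.4 to 43.8 with TNF alone, 0.462 to 1.1 untreated and a mean of 12.64 with rosiglitazone alone. Otop1, a proton channel gene on the brown and beige list, was at 11.2 to 15.6 CPM with both agents, and under 2 CPM in every library of the other 3 groups. Steap4, a metalloreductase, read 76.3, 81.4, 55.8 and 71 CPM with both, 22.1 to 33.4 with TNF alone and 14 to 19.2 untreated (log2 2.18 ± 0.13), and rosiglitazone alone left it at a mean of 15.99. Cybb, a subunit of the phagocyte NADPH oxidase, had 3 counts in the untreated libraries and 7174 with both agents. That is a ratio of 1700 (exact 95% interval for counting error 581 to 8230). TNF alone had already brought Cybb to 54.61 to 72.72 CPM, which overlapped the 65.55 to 92.15 CPM with both agents.

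Several genes were pushed below their level with TNF alone, and of these Ccl6 lay farthest below untreated among the named genes. It read 589, 656, 624 and 710 CPM untreated, 98.9, 105, 108 and 149 with TNF alone, and 21.5, 32.8, 21.1 and 22.7 with both agents, 3.8% of untreated (log2 -4.71 ± 0.12, edgeR adjusted p = 3.43e-27). Rosiglitazone alone lowered it as well, to a mean of 185.3 CPM. Rasl11a, a small GTPase, fell from 24.1 to 33.4 CPM untreated to 7.83 to 9.98 with TNF alone and 0.697 to 2.56 with both (-4.40 ± 0.23). Tgfbi, a matrix protein, and Aspn, a small matrix proteoglycan, went the same way (-3.33 ± 0.21 and -3.79 ± 0.14, against -2.09 and -2.93 with TNF alone). The glutathione transferase genes Gstm1 (-1.88 ± 0.08) and Gstm2 (-1.48 ± 0.07), which are close copies were also lower than with TNF alone. So was Ephx1, the microsomal epoxide hydrolase, at 19.3 to 26.7 CPM against 61.7 to 69.5 untreated and 37.6 to 51 with TNF alone. They are on the list of NRF2 antioxidant genes, with 37 tested. Of these, 14 were lower (37.8%, beside 21.1% of all genes) and 15 higher (40.5%, beside 24.9%). Another 6 were restored and 2 not placed. Cbr3, a carbonyl reductase on that list, was at 318 to 383 CPM against 64.7 to 72.6 untreated (2.35 ± 0.08).

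Most matrix structure and progenitor genes were lower than untreated with both agents. Of 37 collagen and matrix structure genes, 25 were lower (67.6%, beside 21.1% of all genes), 9 higher (24.3%, beside 24.9%), 2 restored and 1 not placed, with a median of -0.62 against -0.24 for TNF alone and -0.50 for rosiglitazone alone. Col3a1, fibrillar collagen III, was at 513, 462, 423 and 486 CPM against 1426, 1482, 1330 and 1329 untreated (log2 -1.56 ± 0.08), and 560 to 587 with TNF alone. Of 26 preadipocyte and progenitor markers, 16 were lower (61.5%, beside 21.1% of all genes) and 4 higher (15.4%, beside 24.9%). Another 2 were restored and 4 not placed. Dlk1, the preadipocyte marker, was at 395 to 476 CPM against 720 to 876 (-0.93 ± 0.09), and Ly6c1 at 8.65 to 14.1 against 82.9 to 86.6 (-2.88 ± 0.15). Cd44, the hyaluronan receptor, was the largest of the 4 that were higher, at 162 to 169 CPM against 19.8 to 24.5 (2.90 ± 0.09). Among 30 matrix remodelling genes, 14 were higher (46.7%, beside 24.9% of all genes) and 13 lower (43.3%, beside 21.1%). The stromelysin gene Mmp3 led the higher ones, at 583, 607, 450 and 413 CPM against 4.75 to 7.06 untreated (6.51 ± 0.18).

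Few genes that TNF had raised strongly were restored. Of the 1256 raised at least 2-fold, 16 were restored, 174 could not be placed and 1 was below untreated. Myof, a membrane repair protein, was at 76.7, 83.8, 79.9 and 67.4 CPM against 76.3, 68.5, 62.3 and 63.4 untreated, having been at 136 to 154 with TNF alone (log2 0.18 ± 0.10). Igf1r, the IGF-1 receptor (0.19 ± 0.11), and Plekhf1 (-0.05 ± 0.12) were also back, and rosiglitazone alone had both below untreated (log2 -0.43 and -0.89). Acta2, smooth muscle actin, had a TNF effect just under 2-fold (log2 0.97). It counted as restored (0.27 ± 0.16, edgeR adjusted p = 0.17), but its interval reached 0.584, just inside the margin of 0.585. It was called higher when only the 2 groups were fitted (0.24) and with no filter on low counts (0.27). The 1 gene that crossed was Cyp2f2, a cytochrome P450 (30.2 to 42.1 CPM against 34.3 to 51.8 untreated and 91.5 to 114 with TNF alone; -0.30 ± 0.12, adjusted p = 0.0449). Its groups overlapped, and it lost the call when untreated replicate 2, 3 or 4 or TNF plus rosiglitazone replicate 1, 2 or 3 was left out (-0.32 to -0.21).

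**Figure D5:**
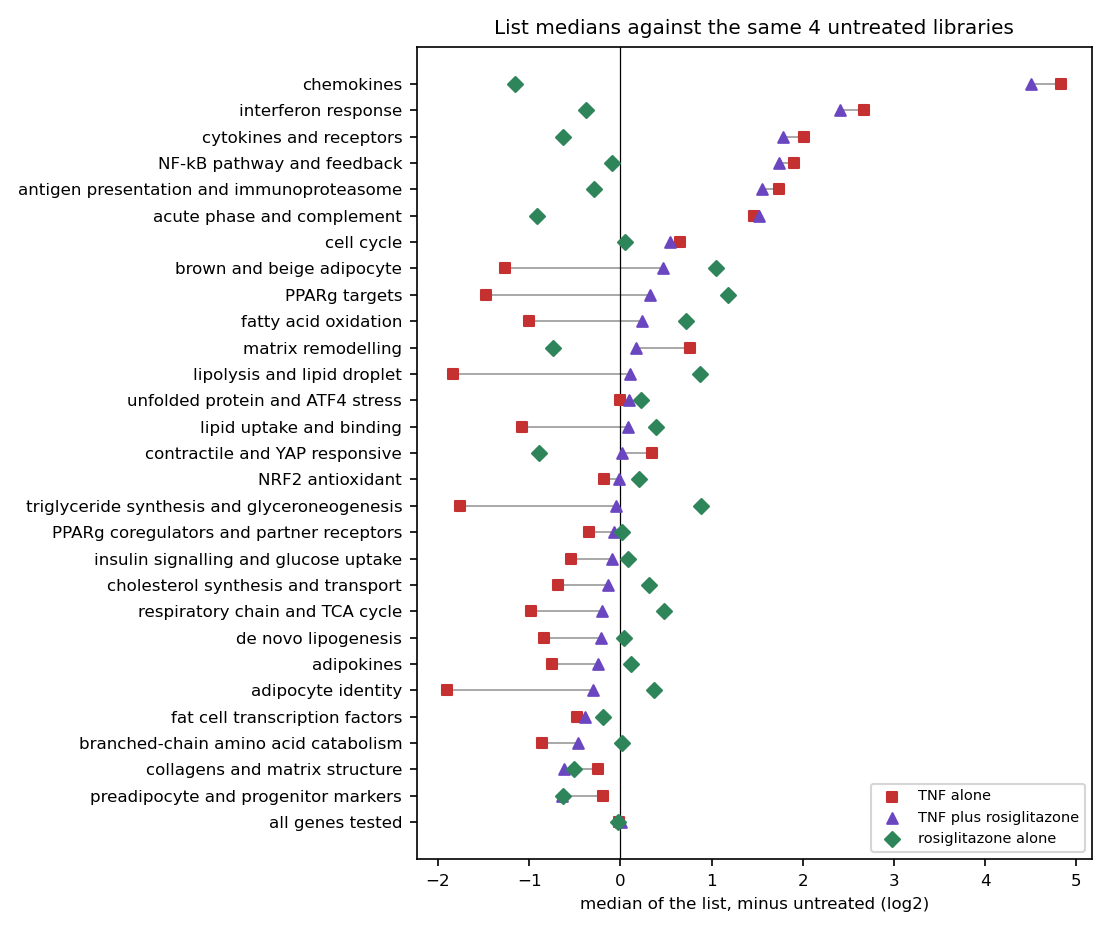
Median log2 difference from untreated of each gene list with TNF alone (squares), TNF plus rosiglitazone (triangles) and rosiglitazone alone (diamonds), all against the same 4 untreated libraries. The lists of macrophage and leukocyte markers and of endothelial and mural markers are not drawn. Metabolic lists lie far from 0 with TNF alone and near it with both agents (identity list, -1.90 and -0.29), while the 6 inflammatory lists at the top lie close together under both conditions (chemokines, 4.83 and 4.51).

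The groups with TNF plus SCO and TNF plus CAP7 were the closest in design, and the libraries were compared directly, with doses not given in the labels. Against TNF plus SCO, 1246 genes (8.64%) were higher with rosiglitazone and 828 (5.74%) lower, or 534 lower without TNF plus rosiglitazone replicate 4. Against TNF plus CAP7, 8.57% of genes differed, 735 higher (5.09%) and 502 lower (3.48%). With library sizes alone the balance turned, to 845 higher and 1782 lower against SCO and to 465 and 756 against CAP7. Of the 37 PPARγ targets, 31 were higher than with SCO and 29 higher than with CAP7. Of the 44 respiratory chain and TCA genes, 43 were higher than with SCO and 13 higher than with CAP7. Pck1 was 1.79 higher on the log2 scale than with SCO and 1.23 higher than with CAP7, and Cidec 1.15 and 0.73 higher. Adrb3 was 0.87 lower than with CAP7 (adjusted p = 9.5e-06), and its difference from SCO was not called (-0.26, adjusted p = 0.19). Of the 46 interferon genes, 6 were higher than with SCO.

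Fat cell markers were present throughout, and Adipoq was at 2655 CPM in the lowest of the libraries with TNF alone. Of 21 macrophage and leukocyte markers, 5 were tested and 3 of these (Cd68, Cd14 and Mrc1) were higher. Their summed level was 29 to 33.1 CPM with both agents against 11.5 to 15.8 untreated, mostly Cd14. Adgre1, Itgam and Tyrobp had no count in the 8 libraries and Ptprc had 1. The 18 endothelial and mural markers summed to 138 to 176 CPM against 205 to 233, mostly Mcam. Of these, 5 were tested and 4 were lower, and Cdh5 had no count. The 34 preadipocyte and progenitor markers summed to 1870 to 2100 CPM against 2370 to 2610 untreated, and their part in the results was not tested. Library totals, in units of 1e6 counts, ran from 15.12 to 37.68 with both agents and from 11.31 to 21.91 untreated. Within a group, Pearson's r of log2 CPM across genes was 0.982 to 0.986 with both agents and 0.978 to 0.984 untreated. The p-values weigh each difference against the spread within groups, estimated over all 32 libraries. Nothing in the labels says whether the libraries came from separate cultures.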

How the data were processed

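RNA from 32 libraries of differentiated 3T3-L1 adipocytes was read from the 3' ends of transcripts. The authors deposited raw counts per Ensembl gene, neither normalized nor pooled. HTSeq 2.0.5 is named in the submitters' processing notes, with STAR 2.7.11b, cutadapt 4.9, limma 3.60.6 and R 4.4.1 also listed, and GRCm39 is the build. The treatment of multi-mapping reads is not stated in these notes. Gene symbols came from a GRCm38 annotation by gene ID (13983 of 14428 tested genes) and promoter sequences from RefSeq GRCm38.p6.

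The counts were tested with edgeR 4.0.16 in R 4.3.3 (quasi-likelihood test, TMM factors, filterByExpr by group), with 1 fit over all 32 libraries (24 residual df, common BCV 0.1116). P-values were Benjamini-Hochberg adjusted over all genes tested, and a gene was called at an adjusted p under 0.05. The script was first tested on simulated data. Standard errors are those of the log2 difference, n = 4 against 4. Floors and counting intervals (95%) cover counting error only.

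The gene lists and members were chosen with earlier results of these data known. Named genes were the 10 largest changes in each direction without overlap, at 16 CPM or more; the 8 largest TNF changes of each outcome; up to 4 genes of lowest p in each of 30 lists; and 95 index genes. Genes given at the threshold, at low counts or as markers of other cells fall outside that rule. Alternatives were other scalings and filters, DESeq2 1.42.0, limma-voom (limma 3.58.1), a replicate block, thinned counts, and each library left out.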

Additional observations from a re-analysis of the deposited data

Results flagged for a closer look

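Among the named genes, 18 of 399 groups of 4 libraries (4.51%) held a library standing apart from the other 3 by Dixon's criterion, and chance alone gives about 1 in 20. In TNF plus rosiglitazone replicate 2, this was Cavin2 at 423 CPM (the others 553 to 571), Ccl6 at 32.8 CPM (the others 21.1 to 22.7) and Cyb561 at 1.08 CPM (the others 2.63 to 2.9). In TNF plus rosiglitazone replicate 3, this was Bscl2 at 56.3 CPM (the others 49.4 to 50.4), Cfd at 5180 CPM (the others 6780 to 6930) and Psme1 at 364 CPM (the others 385 to 388). In TNF plus rosiglitazone replicate 4, this was Srgap1 at 10.2 CPM (the others 12.1 to 12.2) and Tgfbi at 1.5 CPM (the others 2.49 to 2.6). In untreated replicate 1, this was Arl4a at 82 CPM (the others 69.3 to 70.9), Ccl2 at 22.4 CPM (the others 28.9 to 29.1) and Ch25h at 0.13 CPM (the others 0). In untreated replicate 2, this was Steap4 at 19.2 CPM (the others 14 to 14.9). In untreated replicate 3, this was Mmp13 at 1.45 CPM (the others 3.02 to 3.17) and Plin4 at 597 CPM (the others 547 to 552). In untreated replicate 4, this was Cd68 at 1.68 CPM (the others 0.647 to 0.791), Cxcl11 at 0.756 CPM (the others 0), Gbp2 at 16.6 CPM (the others 10 to 11.1) and Nfkbia at 266 CPM (the others 235 to 239).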

How the results depend on the processing

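No called difference of a named gene changed sign under the alternatives run. With library sizes alone in place of TMM factors, the balance of calls turned, from 54.1% to 36.7% higher, as did that against TNF plus SCO and TNF plus CAP7, and the list medians of lipid uptake (0.0816 to -0.0577), lipolysis (0.111 to -0.0284), contractile (0.0177 to -0.121) and unfolded protein genes (0.0953 to -0.0432) changed sign. Under that scaling, TNF-lowered genes not called against untreated numbered 980 and those past it 181, and TNF-raised genes not called numbered 1726 and those past it 195. Under the same scaling, 1782 genes were lower than with TNF plus SCO, 756 were lower and 465 higher than with TNF plus CAP7, 4205 were lower than with TNF alone, and rosiglitazone alone raised 1649 and lowered 4274. The cause was not tested. With genes required to reach 5 CPM in 4 libraries, which leaves 10168 genes, 455 were at least 2-fold lower and 646 higher. At an adjusted p under 0.01, 37 TNF-raised genes were past untreated, 394 genes were lower than with TNF plus SCO, and 392 were higher and 246 lower than with TNF plus CAP7. With a narrower margin than 1.5-fold, 2092 genes were restored. With TNF genes taken from the SCO and CAP7 libraries, 178 raised genes were past untreated. Leaving out 1 library at a time gave 2789 to 3064 lower and 3136 to 3489 higher genes, 1994 to 2211 lowered genes left below, 2300 to 2600 raised genes left above, and 534 to 980 genes lower than with TNF plus SCO, the lowest without TNF plus rosiglitazone replicate 4. Of the 201 named genes, 12 changed call with library sizes alone, among them Pdgfra, Pnpla2 and Slc25a34, which lost it. The replicate numbers did not pair the libraries (correlations of same-numbered deviations -0.0153, -0.0347, 0.0155 and -0.0453, and no library correlated best with its own number). A replicate block gave 3069 lower and 3595 higher genes and changed no call among the named genes. The 3716 genes that could not be placed had a median of 0.868 CPM, and the part of depth in this was not tested.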
